A study of Mus musculus with 6 samples.

Results

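Tight junctions seal the space between neighbouring epithelial or endothelial cells, and the genes described here encode their claudins, their other membrane proteins and the scaffold and polarity proteins beneath them. The members were taken as every probe set whose gene symbol in the array's annotation is exactly 1 of 32 listed symbols; the rule uses no measured value, but the list was drawn up with earlier results of these data known. All 32 genes were on the array, with 68 probe sets among the 45037 probe sets that are not controls. Stria vascularis, a capillary-rich tissue of the cochlea's lateral wall, had been taken from mice at postnatal day 10, before hearing starts, and the RNA of each sample was hybridised to 1 Affymetrix Mouse 430 2.0 array. There were 3 arrays of Slc26a4 heterozygous mice (replicates 1, 3 and 5) and 3 of Slc26a4 knockout mice (replicates 2, 4 and 6). The Slc26a4 product pendrin exchanges anions in epithelia of the inner ear, and the comparison asks how expression in this tissue differs when no working copy is left. The heterozygous controls carry 1 altered allele as well, so there is no wild-type group. The kind of Slc26a4 allele, the strain, the sex and whether RNA of several animals was pooled are not given in the sources used here, and the p-values below refer to the spread among these 6 samples, part of which may be technical.

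In the stria, 2 epithelial layers close off an inner space that holds the intermediate cells and the capillaries. Tight junctions of the marginal cells face the endolymph and those of the basal cells face the spiral ligament, and the electrical potential of the endolymph depends on both layers being tight. Claudins set which ions pass: some seal the gap and others form pores for cations, anions or water. Occludin, tricellulin and the junctional adhesion molecules complete the membrane part, and ZO-1 and its relatives tie it to the cytoskeleton.

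The values are array signal intensities scaled by the authors' software, and a signal depends on how well a probe set binds its transcript, so the order of genes below is an order of probe sets and not of transcript amounts. Where several probe sets exist, the brightest stands for the gene. Values per array are given in the order heterozygous replicates 1, 3 and 5, then knockout replicates 2, 4 and 6. A log2 difference is knockout minus heterozygous on log2(signal + 16), fitted with limma over all 27022 probe sets whose mean signal reached the 40th percentile (46.3), and ± beside it is the standard error. Adjusted p-values are limma's with Benjamini-Hochberg adjustment over those 27022 probe sets, with a threshold of 0.05, and p without that word is limma's unadjusted p.

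The samples carried markers of all strial cell types. Kcnq1 and Kcne1, the potassium channel of marginal cells, had signals of 5326 to 6341 and 4266 to 5801, and Dct, a melanin enzyme of intermediate cells, 9786 to 11513. Gjb2, a gap junction protein of basal cells, had 8292 to 11023. Among intermediate cell markers Tyrp1 lay below the limit for testing and Pmel was dim, at 70.1 to 110. Of the 8 tested 7 had a log2 difference below 0, with a median of -0.16, and Dct was the 1 above. Slc26a4 had signals of 221, 248 and 1006 in heterozygous and 75.5, 106 and 154 in knockout samples, and its adjusted p was 0.371. Where its probe set lies relative to the altered part of the gene is not given in the sources used here, so these signals are a weak check of the labels. Knockout replicate 4 stood apart for blood vessel genes: over 12 endothelial markers the median log2 deviation from the heterozygous mean was -1.16 there and between -0.18 and 0.36 on the other arrays. Heterozygous replicate 5 stood apart for 10 tested markers of sulcus and organ of Corti epithelium, Slc26a4 among them (0.48, against -0.52 to -0.24 elsewhere). It was also highest for 8 spiral ligament fibrocyte markers (0.67, against -0.43 to 0.33 elsewhere).

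No tight junction gene of this set passed the threshold. Of the 68 probe sets 50 were tested, standing for 28 genes, and 0 had an adjusted p under 0.05, and the same rule called 0.0037% of all probe sets and 0.00805% of all genes tested. The lowest adjusted p among them was 0.371, for Cxadr. At an unadjusted p under 0.05 there were 5 of 28 genes (17.9%), 3 higher and 2 lower in knockout samples, against 6.44% of all 12421 genes tested (3.21% higher and 3.23% lower). Over all tested probe sets of these genes 6 of 50 reached that p, 3 in each direction, against 11.7% of the 27022 (9.2% higher and 2.48% lower). In 8 of 28 genes no values overlapped between the groups (28.6%), 3 higher and 5 lower, against 13.1% of all genes (6.07% higher and 7.04% lower). Both counts include Cldn2, which was tested only through its higher knockout signals, and in a count made without it after the data were seen they were 4 of 27 (14.8%) and 7 of 27 (25.9%). The median log2 difference over the 28 genes was -0.049, beside -0.038 over all genes tested, with 13 genes above 0 and 15 below (53.6%, against 56.9% of all genes). The median signal over all probe sets that are not controls was higher on every knockout array. It was 82.3, 76.75 and 81.1 in heterozygous and 89.9, 104.8 and 88.8 in knockout samples. Centring each array on its median shifts every log2 difference by the same -0.20, so small positive differences turn by construction. With it 24 of 28 genes (85.7%) were below 0, against 84.7% of all genes, whose median was -0.24. Which scaling is the right one was not tested.

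**Figure D1:**
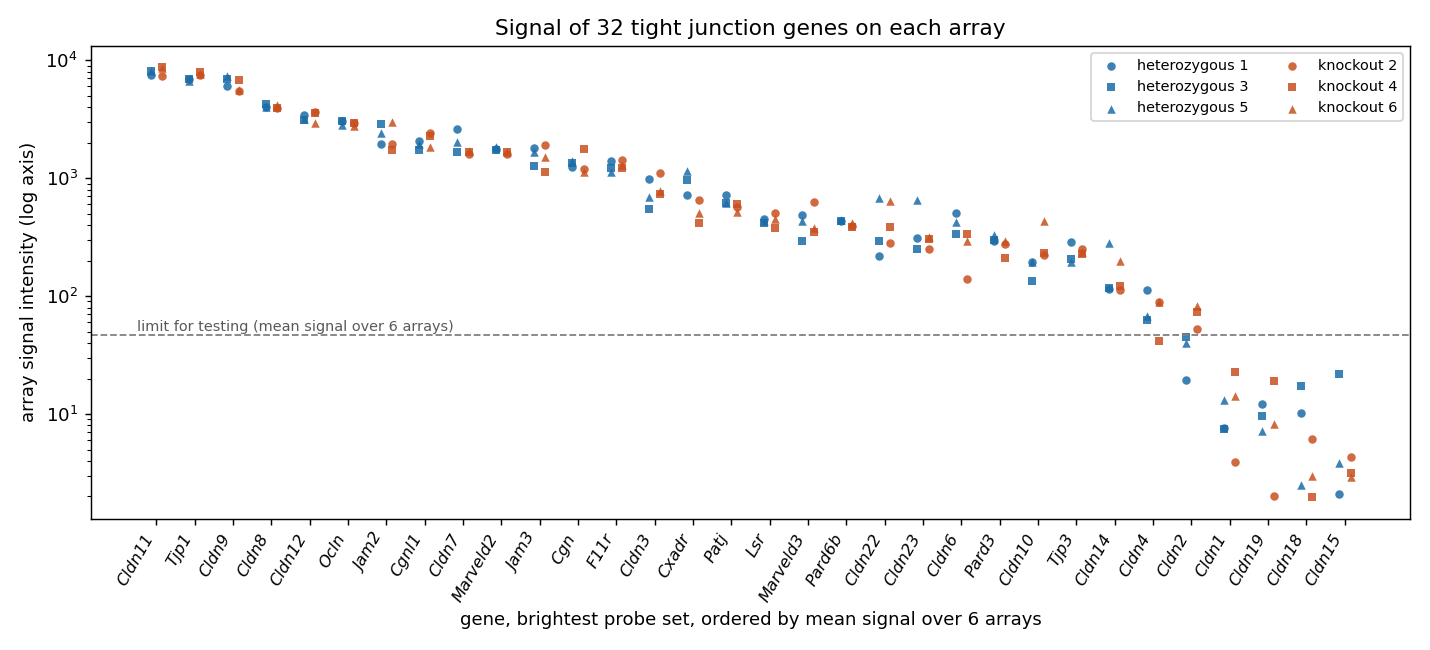
Signal of the brightest probe set of each of 32 genes (vertical log axis, array signal intensity), with 3 heterozygous arrays in blue and 3 knockout arrays in orange, and the limit for testing as a dashed line. Cldn11, Tjp1 and Cldn9 lie highest on every array and Cldn1, Cldn19, Cldn18 and Cldn15 lie under the limit.

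Barrier-forming claudins made up 11 of the genes, of which 8 were tested, with 2 above 0 and 6 below and a median log2 difference of -0.15. Cldn11, the claudin of strial basal cells whose loss lowers the endolymph potential, had the highest mean signal of the set, 8071 over 6 arrays, and lay above 99.5% of all probe sets. Its signals were 7483, 8150 and 8160 in heterozygous and 7412, 8690 and 8529 in knockout samples. The groups overlapped, with the lowest value of all in knockout replicate 2. The log2 difference was 0.047 ± 0.084, with a 95% interval from -0.14 to 0.24, and its sign turned under other scalings (-0.046 with quantile normalisation, -0.15 with median centring).

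Cldn9, a claudin needed in the cochlea for hair cell survival, ranked 3 by mean signal, with 6002, 6937 and 7307 in heterozygous and 5495, 6844 and 5568 in knockout samples. Knockout replicate 4 lay among the heterozygous samples and the other knockout samples below them, and the log2 difference was -0.18 ± 0.11 (adjusted p = 0.568). It was -0.28 without that array, -0.30 with array weights, -0.26 with quantile normalisation and -0.38 with median centring. These were the only 4 of 15 alternatives with an unadjusted p under 0.05. Array weights gave knockout replicate 4 the lowest weight, 0.256. The Cldn9 difference was -0.12 without heterozygous replicate 5, and also -0.12 without knockout replicate 2. Its adjusted p ranged from 0.176 to 0.907 over the 15 alternatives. A second probe set, with 646, 623 and 719 against 550, 532 and 622, gave -0.22 and had no overlap. In the annotation used for gene order, Cldn9 lies next to Cldn6 with no protein-coding gene between them.

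Cldn6, a claudin of embryonic epithelia, was dimmer and had the lowest log2 difference among the claudins. Its signals were 505, 336 and 428 in heterozygous and 140, 334 and 296 in knockout samples, with no overlap, although knockout replicate 4 and heterozygous replicate 3 were almost equal. The log2 difference was -0.75 ± 0.31 (95% interval -1.45 to -0.056, limma p = 0.037, adjusted p = 0.397) and the exact permutation p was 0.1, the smallest that 3 against 3 allow. Without knockout replicate 2, the lowest sample, it was -0.39.

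Cldn8, a barrier claudin of the distal nephron and other tight epithelia, ranked 4 on each of the 6 arrays. Its signals were 4017, 4285 and 4044 against 3910, 3907 and 4151, and the log2 difference of -0.045 ± 0.089 had a 95% interval from -0.24 to 0.15. Cldn7, a claudin found also along the basolateral membrane, had 2604, 1673 and 2012 against 1599, 1664 and 1704, a log2 difference of -0.31 ± 0.16 (limma p = 0.083, adjusted p = 0.485, exact permutation p = 0.2). Its heterozygous samples were spread and its knockout samples close together. Without heterozygous replicate 1, the highest, the Cldn7 difference was -0.15.

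Cldn3 and Cldn4, adjacent genes that both encode receptors for a clostridial enterotoxin, differed in signal. On its brightest probe set Cldn3 had 988, 545 and 693 in heterozygous and 1113, 731 and 785 in knockout samples. Within each group 1 sample lay well above the others, heterozygous replicate 1 and knockout replicate 2. The log2 difference was 0.25 ± 0.24 there, and 0.15, 0.020 and -0.10 on the other 3 probe sets of the gene, so no direction was settled. On the brightest it was 0.057 without heterozygous replicate 3, 0.071 without knockout replicate 2 and 0.48 without heterozygous replicate 1. Cldn4 ranged from 41.2 to 112 over all arrays, close to the limit for testing, with a log2 difference of -0.14 ± 0.32.

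Neither of the 2 tested pore-forming claudins passed, and 1 of them, Cldn2, entered the test only through its knockout signals. Cldn10, whose isoforms form cation or anion pores, had 196, 133 and 193 in heterozygous and 222, 230 and 436 in knockout samples. All knockout samples lay above all heterozygous ones, 1 of them far above. Cartilage and bone markers were also higher in knockout samples: 8 of 9 tested were above 0, with a median of 1.11. In 7 of the 9 every knockout sample lay above every heterozygous one, against 6.07% of all genes. Their median log2 deviations were 0.67, 0.92 and 1.40 in knockout replicates 2, 4 and 6, against -0.096 to 0.085 in heterozygous samples, and their summed signals 10572 to 12682 in heterozygous and 15908 to 20054 in knockout samples. Their part in the Cldn10 and Cldn2 values was not tested. The Cldn10 log2 difference was 0.67 ± 0.29 (95% interval 0.015 to 1.32, limma p = 0.046, adjusted p = 0.419, exact permutation p = 0.1), and 0.36 without knockout replicate 6, the highest. Cldn2, a cation and water pore, had 19.6, 44.8 and 39.99 against 52.9, 73.6 and 81.7, again with no overlap, and a log2 difference of 0.77 ± 0.30 (limma p = 0.029, adjusted p = 0.381, exact permutation p = 0.1). Its heterozygous mean of 34.8 lay below the limit for testing, so Cldn2 was tested only because its knockout signals were higher. The value depended on the offset, 1.03 with an offset of 1 and 0.44 with 64. With quantile normalisation the log2 differences were 0.54 for Cldn10 and 0.59 for Cldn2, and with median centring 0.47 and 0.57. In each of these fits the unadjusted p was above 0.05. The other Cldn2 probe set was below the limit, with signals from 3.38 to 24.7. Cldn15, the remaining pore claudin, was below the limit, with signals from 2.09 to 21.7.

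Cldn12 was bright, with 3445, 3113 and 3155 in heterozygous and 3627, 3537 and 2953 in knockout samples. The groups overlapped, and its 2 probe sets gave log2 differences of 0.054 ± 0.11 and -0.10 ± 0.13. Cldn1, a claudin of the skin barrier, Cldn18, of lung and stomach, and Cldn19, of kidney and Schwann cells, lay below the limit for testing on every probe set, with no signal above 22.7. A low signal of a probe set does not show that the transcript was absent.

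Cldn14, Cldn22 and Cldn23 had single high arrays, and were singled out after their values were seen. Cldn14, a claudin of the organ of Corti whose loss causes deafness, had 114, 117 and 284 in heterozygous and 112, 121 and 200 in knockout samples. Cldn23 had 308, 252 and 647 against 253, 305 and 319, and Cldn22 had 218, 295 and 681 against 281, 382 and 644. Heterozygous replicate 5 was the highest sample for all 3 genes, and for Cldn22 knockout replicate 6 came close to it. Without heterozygous replicate 5 the log2 differences changed from -0.15 to 0.24 for Cldn14, from -0.33 to 0.059 for Cldn23 and from 0.21 to 0.66 for Cldn22. In the same array Slc26a4 stood at 1006, Otog, a protein of the tectorial membrane, at 350 (27.8 and 65.4 in the other heterozygous samples) and Epyc at 10405 (4332 and 6598). In knockout replicate 6 Otog was 17.9 and Epyc 4505. Over 8 spiral ligament fibrocyte markers the median log2 deviation from the heterozygous mean was 0.67 in heterozygous replicate 5 and 0.33 in knockout replicate 6. On the other arrays it lay between -0.43 and 0.13. The part of cell content in these claudin values was not tested. In tissue samples fewer cells of a type and less RNA per cell cannot be told apart.

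**Figure D2:**
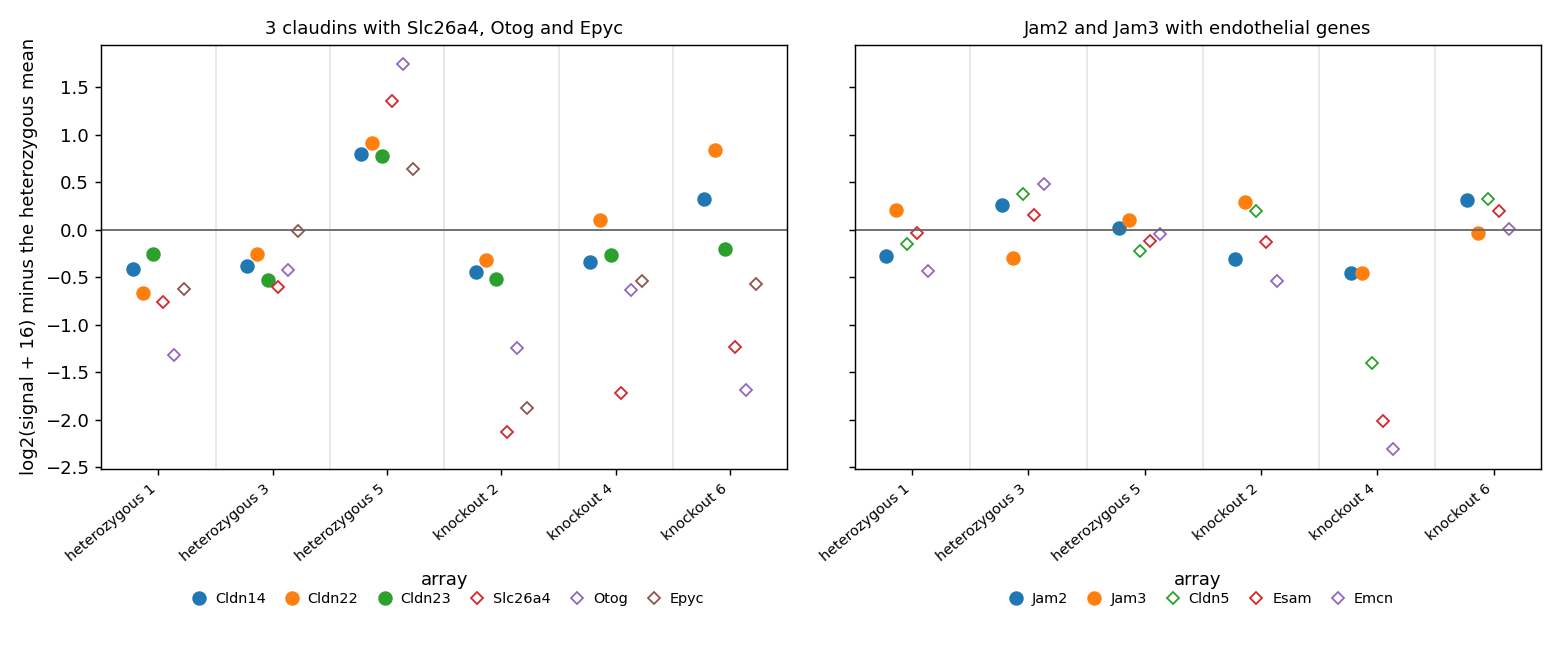
Log2(signal + 16) on each of 6 arrays minus the heterozygous mean (vertical axis), for Cldn14, Cldn22 and Cldn23 with Slc26a4, Otog and Epyc (left) and for Jam2 and Jam3 with the endothelial genes Cldn5, Esam and Emcn (right), filled points being genes of the tight junction set. The 3 claudins are highest in heterozygous replicate 5, and Cldn5, Esam and Emcn are lowest in knockout replicate 4.

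Of 4 tricellular and MARVEL proteins 2 lay above 0 and 2 below, and none passed. Ocln, occludin, had 3068, 3069 and 2811 in heterozygous and 2925, 2918 and 2772 in knockout samples, a log2 difference of -0.054 ± 0.10, and its second probe set gave 0.032. Marveld2, tricellulin, which sits where 3 cells meet and whose loss causes deafness, had 1758, 1743 and 1834 against 1616, 1678 and 1666. The groups did not overlap and the difference was small (-0.10 ± 0.12, 95% interval -0.36 to 0.15, adjusted p = 0.768, exact permutation p = 0.1). Ocln and Marveld2 are adjacent genes. Lsr, which recruits tricellulin, ranged from 376 to 507 and Marveld3 from 295 to 630, with log2 differences of 0.022 ± 0.18 (95% interval -0.39 to 0.43) and 0.13 ± 0.27 (-0.48 to 0.74).

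Of 4 immunoglobulin-like adhesion proteins 1 lay above 0 and 3 below, with a median of -0.11. Cxadr, which binds ZO-1 and serves as the coxsackievirus and adenovirus receptor, had the lowest p of the 28 genes in the fit of all samples. On its brightest probe set the signals were 716, 958 and 1149 in heterozygous and 647, 416 and 505 in knockout samples. Every knockout sample lay below every heterozygous one, with means of 941 ± 217 and 523 ± 117 (SD, n = 3 each). The log2 difference was -0.82 ± 0.23 (95% interval -1.33 to -0.32, limma p = 0.0046), a level of 0.565 of the heterozygous one on the offset scale, and it did not pass over all probe sets (adjusted p = 0.371, exact permutation p = 0.1). The next probe sets had 481, 771 and 700 against 394, 530 and 461, and 137, 209 and 200 against 118, 118 and 101. The dimmest tested one had 67.8, 43.0 and 57.4 against 41.1, 46.6 and 38.4. All 4 lay below 0, at -0.82, -0.46, -0.61 and -0.30, and the groups overlapped in the second and the last. Probe sets of 1 gene share the samples and are not replicates. Over 15 alternatives the difference ranged from -1.02 to -0.44 and its adjusted p from 0.156 to 0.869. Of 10 tested markers of sulcus and organ of Corti epithelium 9 were also below 0, with a median of -0.45. Their summed signals were 27622 to 33571 in heterozygous and 24671 to 29287 in knockout samples. The 10 include Slc26a4 itself, at -1.69, and Krt18, Myo7a, Epcam and Krt8, which lay nearer 0 at -0.0049, -0.097, -0.11 and -0.19. Cdh1, the marker above 0, was at 0.21. The part of these markers in the Cxadr difference was not tested. Without heterozygous replicate 5, the array with the highest Cxadr signal, the Cxadr difference was -0.67.

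Jam2, the junctional adhesion molecule B of endothelium and other cells, gave different answers on its 4 tested probe sets. The brightest had 1966, 2859 and 2419 in heterozygous and 1933, 1740 and 2978 in knockout samples, with overlap and a log2 difference of -0.15 ± 0.21. The second had 582, 580 and 571 against 974, 599 and 844, with every knockout sample above the heterozygous ones, and a log2 difference of 0.44 ± 0.20 (limma p = 0.051, adjusted p = 0.429, exact permutation p = 0.1). The others gave 0.31 and -0.20. Knockout replicate 4 was the lowest of the knockout samples on each of the 4, and without it the differences were 0.0074, 0.64, 0.58 and 0.084. Most of 12 endothelial markers were low in that array too. Cldn5, the claudin of capillaries, had 856, 1241 and 810 against 1096, 351 and 1192, and Esam 824, 943 and 781 against 772, 198 and 973. Kdr and Vwf did not have their lowest value there. Kdr had 429, 539 and 433 against 523, 579 and 654, and Vwf 256, 310 and 175 against 210, 206 and 349. The part of capillary content in the Jam2 values was not tested.

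Jam3, junctional adhesion molecule C, had 1790, 1256 and 1662 in heterozygous and 1897, 1129 and 1516 in knockout samples, and knockout replicate 4 was again the lowest. Its log2 difference was -0.067 ± 0.21, and 0.13 without that array. Among heterozygous samples Jam3 was lowest in replicate 3, where the 12 endothelial markers had their highest median deviation (0.36). The part of capillary content in the Jam3 values was not tested. F11r, junctional adhesion molecule A of epithelia, ranged from 1137 to 1401 in heterozygous and from 1223 to 1436 in knockout samples (0.079 ± 0.14).

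**Figure D3:**
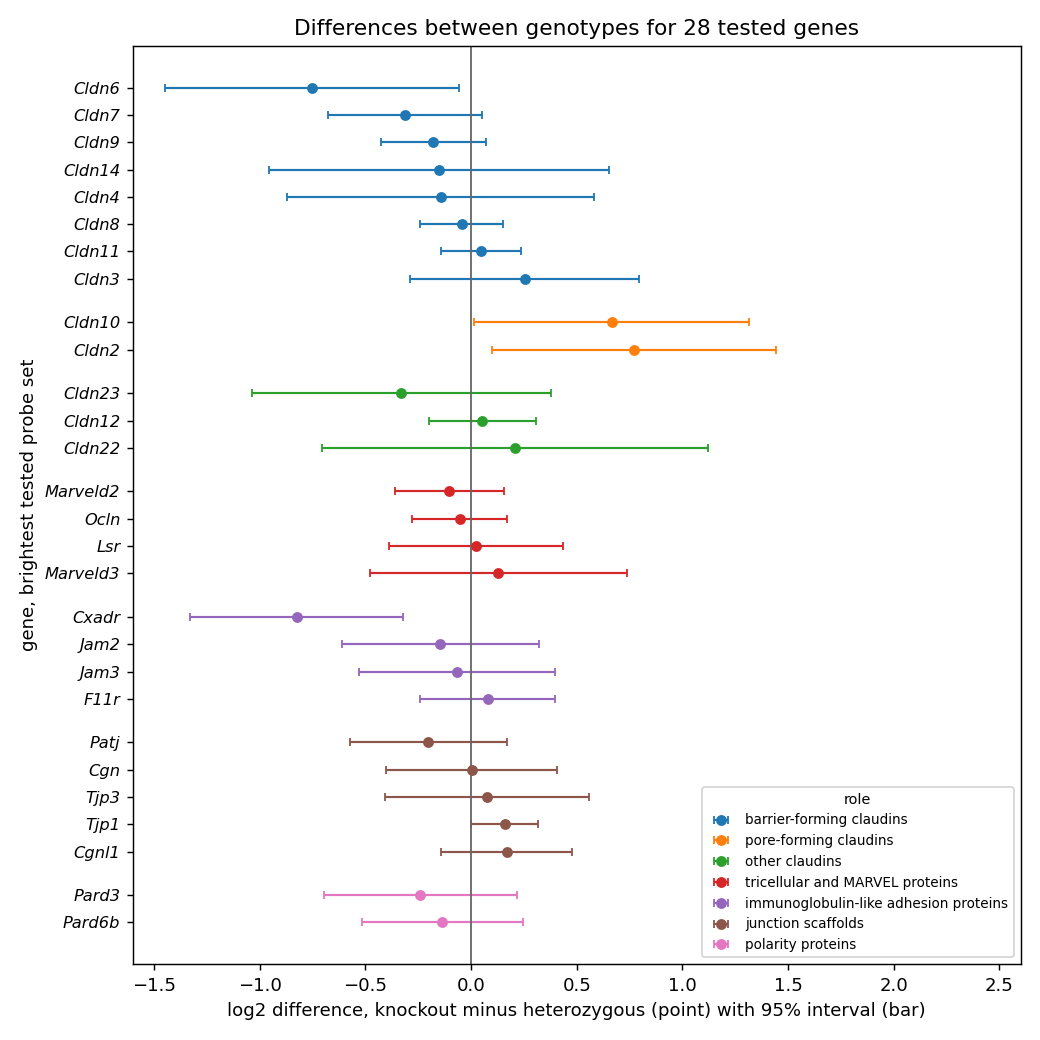
Log2 difference, knockout minus heterozygous, of 28 tested genes (points) with 95% intervals (bars), grouped by role. Cxadr and Cldn6 lie lowest, at -0.82 and -0.75, and Cldn2 and Cldn10 highest, at 0.77 and 0.67. Cldn2 was tested only through its knockout signals, and its value depends on the offset. Most others lie within 0.2 of 0, where the sign of several, among them Tjp1 and Cldn11, turns when arrays are centred on their medians.

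Of 5 junction scaffolds 4 lay above 0 and 1 below, with a median of 0.076. Tjp1, the scaffold ZO-1, was the second brightest gene and had the smallest standard error of the set in limma's variance-trend fit. Its signals were 6922, 6988 and 6690 in heterozygous and 7446, 7931 and 7636 in knockout samples. The groups did not overlap, with means of 6867 ± 157 and 7671 ± 244 (SD, n = 3 each), a step of 0.16 ± 0.071 in log2 (95% interval 0.00027 to 0.32, limma p = 0.0497, adjusted p = 0.428, exact permutation p = 0.1). With median centring the difference was -0.040 and with quantile normalisation 0.077, with an unadjusted p above 0.05 in both. Without the variance trend the Tjp1 difference stayed at 0.16, but its unadjusted p was above 0.05. Bright genes as a whole leaned the same way: of 382 genes with a mean signal of 6000 or more, 83.2% had a log2 difference above 0 with a median of 0.085, and in 18.3% every knockout sample lay above every heterozygous one. That limit of 6000 was chosen after the values were seen, and the part of this lean in the Tjp1 value was not tested.

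The other scaffolds differed by less than their intervals. Cgnl1, paracingulin, had 2076, 1743 and 1961 against 2404, 2273 and 1848 (0.17 ± 0.14, with 0.092 without knockout replicate 2 and 0.28 without knockout replicate 6), and its 4 tested probe sets ran from 0.18 to -0.34. Cgn, cingulin, had 1249, 1342 and 1401 against 1197, 1759 and 1121 (0.0024 ± 0.18), with knockout replicate 4 above all other samples. Tjp3, ZO-3, ranged from 194 to 285 over all arrays (0.076 ± 0.22).

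Patj, a scaffold of the Crumbs polarity complex, had probe sets in opposite directions. The brightest had 723, 620 and 613 in heterozygous and 574, 605 and 515 in knockout samples, all knockout samples lower, and a log2 difference of -0.20 ± 0.17 (-0.13 without heterozygous replicate 1). The second had 385, 337 and 344 against 529, 489 and 390, all knockout samples higher, and gave 0.38 ± 0.19. The dimmest tested one, near the limit for testing, had 35.1, 41.9 and 43.2 against 64.5, 166 and 44.6 and gave 0.78 ± 0.39. Which transcript forms these probe sets detect is not given in the sources used here, so the gene has no single direction in these data.

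The polarity proteins Pard3 and Pard6b, which act with an atypical protein kinase C at the forming junction, lay slightly lower in knockout samples without passing. Pard6b had 436, 433 and 443 against 389, 382 and 420, with no overlap, a log2 difference of -0.14 ± 0.17 and an adjusted p of 0.797. Its second probe set gave -0.21, also with no overlap. Pard3 had 292, 299.7 and 328 against 275, 210 and 293 (-0.24 ± 0.20, and -0.11 without knockout replicate 4), and its other tested probe sets gave 0.066 and -0.30.

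**Figure D4:**
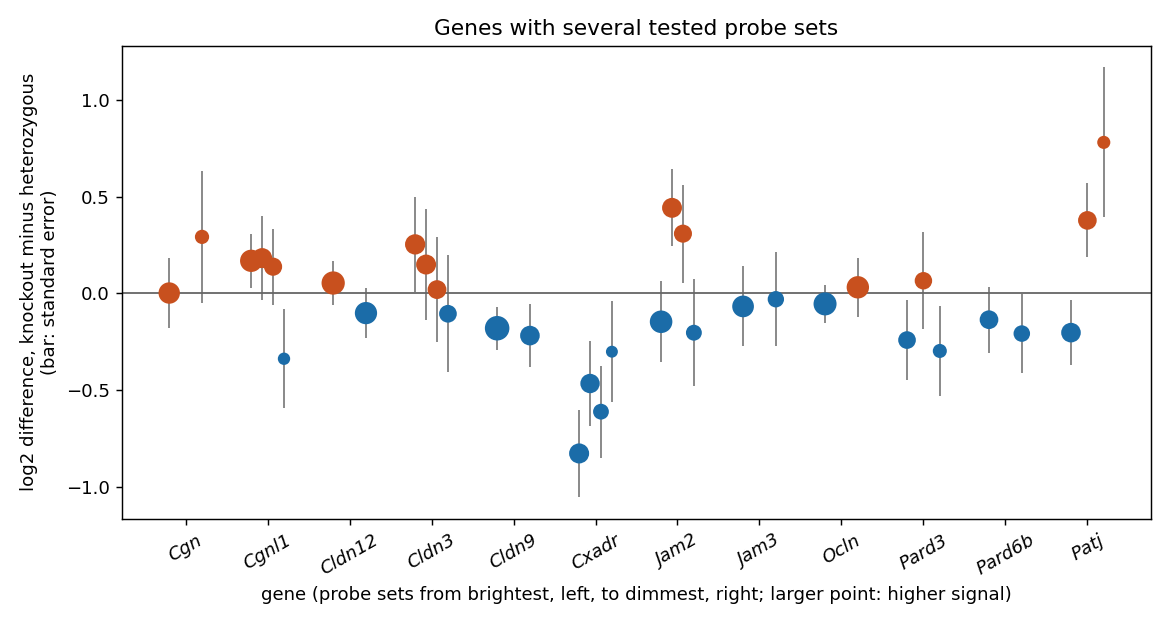
Log2 difference, knockout minus heterozygous, with its standard error, for each tested probe set of the 12 genes that have several, from the brightest (left) to the dimmest (right). All 4 Cxadr probe sets lie below 0, while 7 genes, among them Jam2, Patj and Cldn3, have probe sets on both sides of 0.

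Agreement between probe sets was thus uneven. Of 12 genes with several tested probe sets, 7 had values on both sides of 0, 4 were below 0 throughout (Cldn9, Cxadr, Jam3 and Pard6b) and Cgn was above 0 on both. By signal, the order of the genes was steady between arrays: 11 or 12 of the 12 brightest genes were also among the 12 brightest on each single array, and the summed signal of the tested genes was 49389 to 51228.5 in heterozygous and 48432 to 50077 in knockout samples.

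Related gene lists also held no gene past the threshold. Of 24 tested genes among other tight junction genes 14 were above 0 and 10 below (median 0.031). Beside 6.44% of all genes tested, 2 of the 24 had an unadjusted p under 0.05. These were Magi3, a scaffold, at 1377, 1398 and 1425 against 2103, 1757 and 1561 (0.35 ± 0.14, adjusted p = 0.390), and Ildr2, an angulin of tricellular junctions, at 408, 505 and 377 against 641, 800 and 469 (0.53 ± 0.23, adjusted p = 0.413). Pard6a, a relative of Pard6b, had -0.57 ± 0.27 (adjusted p = 0.445). Among 17 adherens junction genes, with 8 above 0 and 9 below, Cdh1, E-cadherin, had 9808, 10169 and 10021 against 10803, 13004 and 10988 (0.21 ± 0.081, adjusted p = 0.377). Ctnnb1, beta-catenin, which links cadherins to actin, had 0.18 ± 0.082 (adjusted p = 0.439) and Nectin2, an adhesion protein, -0.37 ± 0.20 (adjusted p = 0.502). Cdh1 and Ctnnb1 are among the bright genes that leaned upwards as Tjp1 did, and with median centring the median of the adherens list went from -0.0014 to -0.20.

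Of 8 tested transcription factors of epithelial junctions 6 were above 0 and 2 below (median 0.056). Grhl1, a grainyhead factor that activates junction genes, had 0.49 ± 0.27 (adjusted p = 0.516), and the repressors Snai2 and Zeb1 0.30 ± 0.20 and 0.11 ± 0.10 (adjusted p = 0.611 and 0.725). Among 6 kinases that act on junctions, Wnk4 had 0.30 ± 0.14 (adjusted p = 0.454), Wnk1 0.13 ± 0.11 (adjusted p = 0.684) and Rock1 0.091 ± 0.11 (adjusted p = 0.791), and the list median was 0.085. Neither list held a gene with an unadjusted p under 0.05.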

How the data were processed

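Per the labels' protocols, RNA was extracted with a Qiagen kit and labelled by NuGEN's Ovation method. The authors deposited a linear signal intensity for each probe set, from GCOS per the submitters' processing notes. Leaving off the lowest and highest 2% of values, all 6 arrays had a mean of 500.002, so scaling had been done in the deposited values. The precision is limited by having 3 arrays a group.

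The platform annotation gave 34945 probe sets 1 symbol, 932 several and 9160 none. RefSeq gene order was used for neighbours only, and 64 control probe sets were left out. The fit was limma 3.58.1 in R 4.3.3 (lmFit, eBayes with a variance trend). It was also run on simulated data with independent noise and planted shifts, which held none of the array differences described above. No p-value was adjusted over the list alone.

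The named genes were all 32 members, with values per array for the 12 brightest, for those with an unadjusted p under 0.05 or no overlap, and for those whose probe sets differ in sign, and up to 3 genes per related junction list by p. Of the cell type marker lists only genes that stand beside a result are named. The members and lists were chosen with earlier results of these data known. Alternatives were offsets of 1 and 64, quantile normalisation, median centring, no filter, a 60th percentile filter, no variance trend, array weights, averaging all probe sets of a gene and leaving out each array. Plots were made in Python 3.11.15 (matplotlib 3.10.9).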

Additional observations from a re-analysis of the deposited data

How the results depend on the processing

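No gene of the set had an adjusted p under 0.05 in any of the 15 alternatives, and the lowest was 0.156. With limma on all samples 5 genes had an unadjusted p under 0.05. That count was 3 with quantile normalisation, 3 with no filter, 3 with a 60th percentile filter and 2 without a variance trend, and 1 to 5 when single arrays were left out (1 when heterozygous replicate 1 was left out, and 2 for heterozygous 5 or knockout 6). Over all probe sets 1 was called with all samples, 3 with quantile normalisation, 3 with median centring, 0 with no filter, 0 with the 60th percentile filter, 23 with array weights, and 0 to 13 when single arrays were left out (13 for knockout 4, 2 for heterozygous 1, and 0 for heterozygous 5, knockout 2 or knockout 6). Cxadr, Cldn2, Cldn3, Cldn6, Cldn7, Cldn8, Cldn9, Cldn10, Ocln, Marveld2, Pard3 and Pard6b kept their sign in every alternative that tested them, and 16 other genes did not. These signs are of the brightest probe set or, in the alternative that averages, of the mean over probe sets. Other single probe sets of Cldn3, Ocln and Pard3 had the opposite sign in the fit of all samples (-0.10, 0.032 and 0.066). No paired analysis was made, because the labels number the samples serially across both groups and name no pairs. Whether samples were paired is not given.

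With median centring the medians became -0.25 for the 28 genes, -0.24 for all genes, -0.17 for other tight junction genes, -0.20 for adherens junction genes, -0.14 for transcription factors and -0.11 for kinases, and the sign turned for Cldn11 (-0.15), Cldn12 (-0.15), Marveld3 (-0.071), Tjp1 (-0.040), Tjp3 (-0.12), F11r (-0.12), Cgn (-0.20), Cgnl1 (-0.031) and Lsr (-0.18), with 4 genes above and 24 below 0. With quantile normalisation it turned for Cldn11 (-0.046), Tjp3 (-0.031) and Lsr (-0.0054), and the adherens median was -0.072. With array weights it turned for Cldn4 (0.15), Cldn11 (-0.021), Cldn22 (-0.19), Jam3 (0.088) and Cgn (-0.15). Averaging all probe sets of a gene, tested or not, turned it for Cldn12 (-0.024), Marveld3 (-0.081), F11r (-0.060), Jam2 (0.16) and Patj (0.30), and the medians were -0.057 for other tight junction genes, 0.042 for adherens junction genes and 0.15 for transcription factors. Median centring turns signs by its construction, since it shifts every gene by -0.20. The cause of the other turns was not tested.

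Leaving out single arrays gave log2 differences from -0.29 to 0.14 for Cldn4, -0.0012 to 0.15 for Cldn12, -0.39 to 0.24 for Cldn14, -0.12 to 0.66 for Cldn22, -0.60 to 0.059 for Cldn23, -0.13 to 0.28 for Marveld3, -0.024 to 0.24 for Tjp3, -0.38 to 0.0074 for Jam2, -0.24 to 0.13 for Jam3, -0.20 to 0.13 for Cgn and -0.074 to 0.13 for Lsr. The medians ran from -0.078 to 0.0060 for the 28 genes (above 0 only without knockout 4), from -0.037 to 0.062 for adherens junction genes and from 0.0041 to 0.12 for transcription factors. The values of Cldn2 and Cldn4 rest on dim signals near the limit for testing.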
